A study of Mus musculus with 12 samples.

Results

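The genes described here are Trp53, which encodes the transcription factor p53, and 9 of its target genes: Mdm2, Ccng1, Trp53inp1, Phlda3, Zmat3, Perp, Aen, Ddb2 and Polk. They were chosen by name, with earlier results of these data known, from 49671 genes counted by RNA-seq, and all 10 had enough reads to be tested among 17977 tested genes. The 12 libraries came from regulatory T cells (Tregs), CD4 T cells that restrain immune responses, of C57BL/6 mice aged 8 weeks. Natural Tregs (nTregs) and induced Tregs (iTregs) were each wild type (WT) or Gclc mutant, which makes 4 groups of 3 libraries: WT nTregs, mutant nTregs, WT iTregs and mutant iTregs. The nTregs were fresh and the iTregs cultured, so effects of Treg kind and of culture cannot be told apart here. Gclc encodes the catalytic subunit of the enzyme that limits the rate of glutathione synthesis. The labels do not say how the mutation was made or which cells carry it. They also name no animal or culture for a library, so p-values measure the spread between these libraries, which may be technical. WT libraries are numbered 1, 2 and 3 and mutant libraries 1, 2 and 4, and values below are listed in that order.

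The protein p53 is kept scarce in unstressed cells by the ubiquitin ligase Mdm2, and DNA damage, oxidative stress or oncogene activity stabilise it through kinases such as Atm and the checkpoint kinases. Stabilised p53 binds response elements made of a pair of similar decamers and activates genes of cell cycle arrest, cell death, DNA repair and metabolism, Mdm2 among them, which closes a negative feedback loop. Because p53 is controlled mainly at the level of protein, the mRNA of Trp53 is a poor measure of its activity, and the mRNA of its targets is commonly read instead. In lymphocytes p53 is known for restraining proliferation and for removing cells with damaged DNA.

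The promoter sequences are shown because the 10 genes are grouped as Trp53 and targets of p53, and a decamer is the element that p53 contacts. RefSeq promoter windows on GRCm38.p6, from 250 bases before to 50 bases after a transcript start, were present for 6 of the 10 genes: Trp53, Mdm2, Ccng1, Phlda3, Aen and Polk. Trp53inp1, Zmat3, Perp and Ddb2 have no entry in that table. Both strands were searched for an exact match to the p53 half-site consensus, which is 10 bases long and reads the same on either strand. Each line gives the match in capitals with 10 bases on either side, 5′ to 3′ on the strand of the gene.
Trp53: acccacggaaGGACTTGCCCttacttgtta
Mdm2: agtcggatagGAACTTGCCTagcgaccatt
Ccng1: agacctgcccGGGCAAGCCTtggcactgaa
Aen: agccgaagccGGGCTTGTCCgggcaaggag
Polk: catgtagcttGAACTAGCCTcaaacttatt
Coordinates are those of all the printed bases, and distances are counted to the first base in capitals. The Trp53 bases lie at chr11:69580274-69580303 on the plus strand, and the match begins 75 bases before the start. Those of Mdm2 lie at chr10:117710925-117710954 on the minus strand, with the match from 186 bases before the start, and those of Ccng1 at chr11:40755452-40755481 on the minus strand, with the match from 185 bases before the start. The Aen bases lie at chr7:78895927-78895956 on the plus strand, and the match begins 121 bases before one annotated start and 10 bases after another. The Polk bases lie at chr13:96519399-96519428 on the minus strand, and the match begins 231 bases before one of its 2 starts. That start lies inside the gene, and the window of the other Polk start had no match. No match was found in the Phlda3 window. A match was therefore present for 5 of 6 genes, Trp53 itself among them, against 2745 of all 32851 windows (8.4%) and 2582 of 27025 genes (9.6%). The genes were chosen by name as p53 and its targets, so these shares do not test whether they are targets. These are matches of letters in a short window, and binding was not measured here.

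Sequencing depth and the labels were checked first. Total counts per library ran from 28707579 to 39886130. Levels are given in CPM, counts scaled to a common depth after scaling of library sizes by TMM. That method is meant to reduce the effect of differences in RNA composition between libraries. Gclc was at 78.73, 79.02 and 70.84 CPM in WT nTregs and 45.82, 41.71 and 43.2 CPM in mutant nTregs, and at 56.54, 53.19 and 51.94 CPM in WT iTregs and 18.77, 21.03 and 19.03 CPM in mutant iTregs. Every mutant library lay below every WT library of its kind (log2 fold change -0.81 ± 0.07 SE in nTregs, adjusted p = 7.03e-05, and -1.46 ± 0.08 in iTregs, adjusted p = 1.64e-06). Foxp3, the transcription factor that defines Tregs, was present in all libraries but lower in mutants, at 558.9 to 610.5 CPM in WT and 135.3 to 217.5 CPM in mutant nTregs, and at 286.9 to 300.4 CPM in WT and 75.49 to 106.8 CPM in mutant iTregs. Of the 7 T cell and Treg markers checked, Foxp3 and Cd3e (-0.23, adjusted p = 0.0418) fell in mutant nTregs, and Cd4, Il2ra, Ctla4, Ikzf2 and Tnfrsf18 did not pass. In mutant iTregs Foxp3 fell, Il2ra rose (0.31, adjusted p = 0.0098) and the other 5 did not pass. The summed level of 10 CD8 T and NK cell markers was 65.23 to 76.9 CPM in WT nTregs, 1619 CPM in mutant nTreg library 1, 203.2 and 177.3 CPM in mutant nTreg libraries 2 and 4, and 31.43 to 86.72 CPM in iTregs, where 3 of the 10 markers (Gzma, Gzmk and Ncr1) were at 0 in each library. B cell markers (8 genes) summed to 251.2 to 520.7 CPM in nTregs and 2.425 to 3.675 CPM in iTregs, myeloid markers (8 genes) to 47.82 to 66.74 and 5.737 to 10.71 CPM, and erythroid markers (6 genes) to 110.8 to 883.4 and 0 to 0.1081 CPM. The summed level of 12 genes of DNA replication and mitosis was 672.2 to 925.3 CPM in WT nTregs, 3360, 2006 and 1982 CPM in mutant nTregs, 3122 to 4491 CPM in WT iTregs and 4832 to 5859 CPM in mutant iTregs. The part of these marker levels in the results below was not tested.

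Changes below are log2 fold changes ± SE from edgeR's quasi-likelihood test, two-sided, with Benjamini-Hochberg adjustment over all 17977 tested genes, and a gene is said to rise or fall when its adjusted p was below 0.05. In mutant against WT nTregs, 5 of the 10 genes rose (Phlda3, Zmat3, Perp, Aen and Polk), 2 fell (Trp53inp1 and Ddb2) and 3 did not pass (Trp53, Mdm2 and Ccng1). Of all tested genes 19.3% rose, 15.6% fell and 34.9% changed in either direction. Every mutant library was higher for 5 of the 10 genes and lower for 3, against 25.7% and 22.6% of all tested genes (48.2% in either direction). The median log2 fold change of the 10 genes was 0.20, against 0.04 for all tested genes. In mutant against WT iTregs, 4 of the 10 rose (Mdm2, Ccng1, Perp and Polk) and none fell, against 14% and 11.4% of all tested genes (25.4% in either direction). In iTregs every mutant library was higher for 4 of the 10 and lower for 1 (Ddb2), against 26.8% and 19.7% of all tested genes (46.5% in either direction). At an unadjusted p below 0.05 the iTreg counts were 5 higher and 1 lower, and by DESeq2 5 and 0. The median over the 10 genes was 0.29 in iTregs, against 0.04 for all tested genes. Perp and Polk rose in both kinds of Treg. Both nTreg calls and the iTreg call of Polk were lost when the fit or the libraries were varied, as given below.

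**Figure D1:**
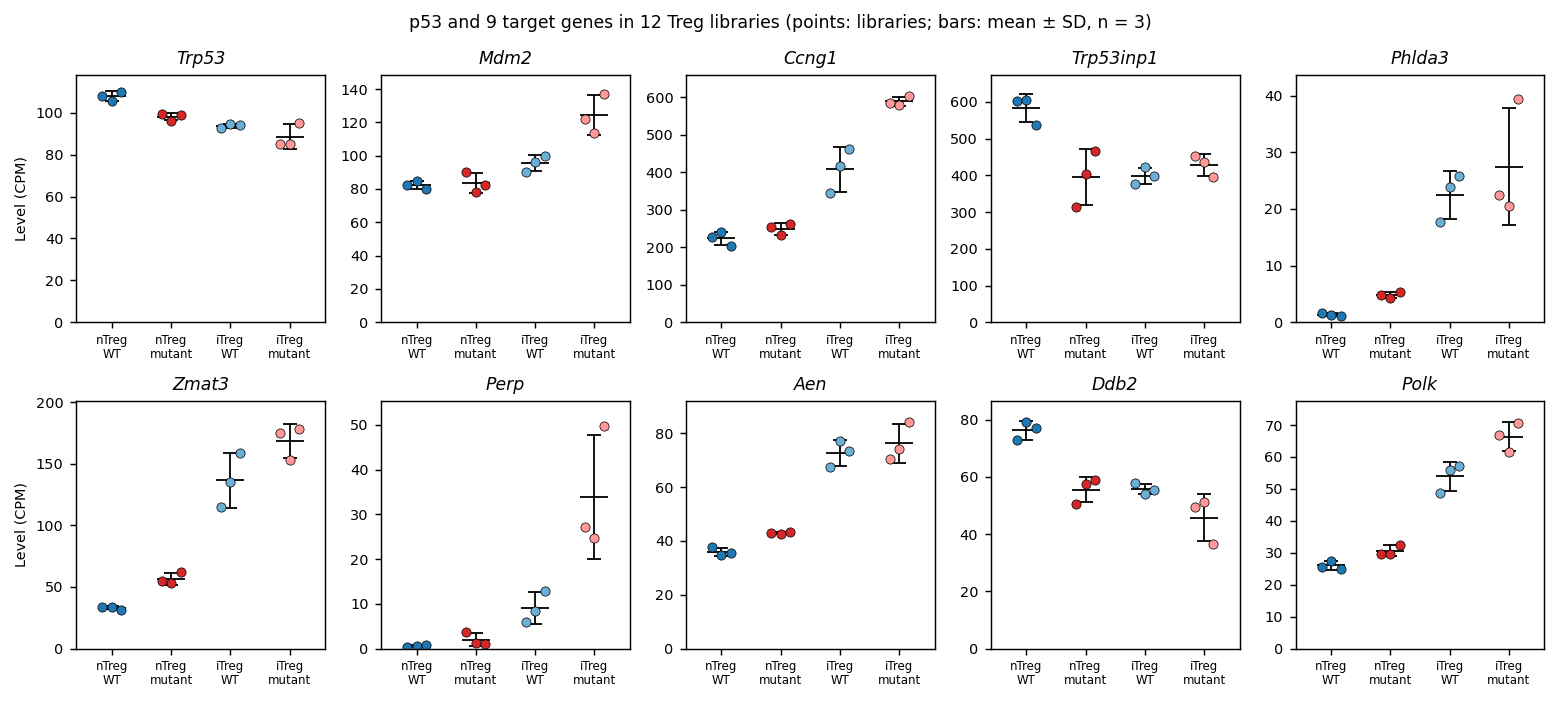
Level of Trp53 and its 9 target genes in each of the 12 libraries, in CPM on a linear axis from 0 with its own scale for each gene, by group (points are libraries, bars are mean ± SD, n = 3). Mdm2, Ccng1, Phlda3, Zmat3, Perp, Aen and Polk sit higher in both iTreg groups than in both nTreg groups, while Trp53 stays between 85.02 and 110.1 CPM in all libraries.

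**Figure D2:**
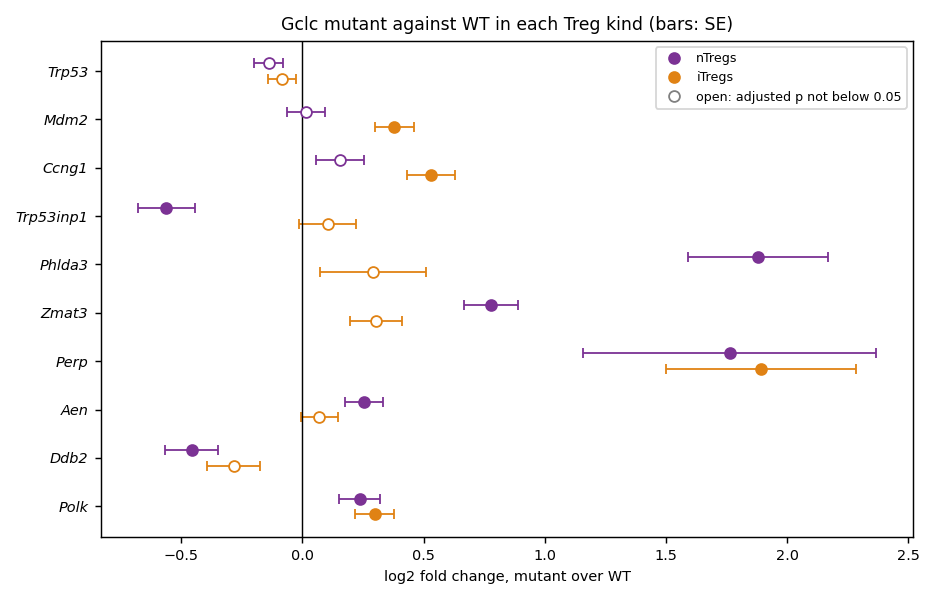
Log2 fold change of mutant over WT for the 10 genes in nTregs and iTregs, with bars of 1 SE and filled points where the adjusted p was below 0.05. Trp53inp1, Phlda3, Zmat3, Aen and Ddb2 passed in nTregs and not in iTregs, Mdm2 and Ccng1 in iTregs and not in nTregs, and Perp and Polk in both; the difference itself passed for Mdm2, Trp53inp1 and Phlda3.

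Trp53 itself (ENSMUSG00000059552, GRCm38 chr11:69580359-69591873, plus strand) was at 108.2, 105.7 and 110.1 CPM in WT nTregs and at 99.23, 96.11 and 98.96 CPM in mutant nTregs. The iTreg levels were 92.91, 94.73 and 94.04 CPM in WT and 85.31, 85.02 and 95.37 CPM in mutants. Mutant nTregs were all below WT nTregs, whereas in iTregs mutant library 4 was above every WT library. The nTreg difference of -0.14 ± 0.06 did not pass (adjusted p = 0.0857), although it passed by DESeq2 (-0.16, adjusted p = 0.0262) and without mutant iTreg library 4 (-0.14, adjusted p = 0.0497), and the iTreg difference of -0.08 ± 0.06 did not either (adjusted p = 0.319). In bulk RNA such as this, fewer cells that express a gene and less of its RNA per cell cannot be told apart.

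Mdm2 (ENSMUSG00000020184, chr10:117688888-117710758, minus strand), the ligase that marks p53 for degradation and is itself a p53 target, was at 82.59, 85.02 and 80.29 CPM in WT nTregs and 90.07, 78.04 and 82.35 CPM in mutant nTregs. WT iTregs had 90.49, 96.45 and 99.95 CPM and mutant iTregs 122.1, 113.9 and 137.3 CPM. The nTreg groups overlapped, and in iTregs every mutant library was higher. Accordingly Mdm2 rose in iTregs by 0.38 ± 0.08 (adjusted p = 0.006) and differed by 0.01 ± 0.08 in nTregs (adjusted p = 0.905). The difference between these effects was 0.37 ± 0.11 (adjusted p = 0.049), which lay at the threshold: it was lost when libraries were scaled by size alone (0.23, adjusted p = 0.165), under both other filters on low counts (adjusted p = 0.0767 and 0.0665) and without any single one of 10 of the 12 libraries, those other than mutant iTreg library 2 and mutant nTreg library 1 (adjusted p of 0.0598 to 0.116). It was also lost with a replicate block, a fit with replicate number added (adjusted p = 0.0922).

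Cyclin G1, encoded by Ccng1 (ENSMUSG00000020326, chr11:40748552-40755311, minus strand), is a p53 target that feeds back on Mdm2. Its level was 227.9, 239.2 and 203.8 CPM in WT nTregs and 253.6, 231.2 and 262.8 CPM in mutant nTregs. In iTregs it was 343.5, 417.4 and 460.6 CPM in WT and 584, 578.2 and 602.9 CPM in mutants. WT iTregs were spread widely and mutant iTregs narrowly, with no overlap. Ccng1 rose by 0.53 ± 0.10 in iTregs (adjusted p = 0.00369), while the nTreg value of 0.16 ± 0.10 did not pass (adjusted p = 0.242). The effects differed by 0.37 ± 0.14, which did not pass either (adjusted p = 0.0936), but passed by DESeq2 (adjusted p = 0.0495) and without WT iTreg library 3 (0.47, adjusted p = 0.0472).

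Among targets linked to cell death or growth restraint, Trp53inp1 (ENSMUSG00000028211, chr4:11156431-11174379, plus strand) encodes a stress-induced nuclear protein that promotes p53 phosphorylation and autophagy. WT nTregs had 603.4, 605.7 and 538.2 CPM and mutant nTregs 314.9, 403.8 and 465.7 CPM. WT iTregs had 376.3, 421.2 and 396.9 CPM and mutant iTregs 451.2, 436.9 and 395.3 CPM. All mutant nTreg libraries were lower than all WT nTreg libraries, the lowest being library 1, the library with the highest CD8 and NK cell marker sum, and the iTreg groups overlapped. Trp53inp1 fell in nTregs by 0.56 on the log2 scale (SE 0.12, adjusted p = 0.00358) and differed by 0.10 ± 0.12 in iTregs (adjusted p = 0.551). The effects differed by 0.66 ± 0.17 (adjusted p = 0.0226). That call was lost when libraries were scaled by size alone (0.52, adjusted p = 0.0537) and without any one of WT iTreg library 1, WT nTreg libraries 1 and 2 and mutant iTreg libraries 1 and 2 (adjusted p of 0.0534 to 0.0619).

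Phlda3 (ENSMUSG00000041801, chr1:135766119-135769136, plus strand) encodes a PH-domain protein that inhibits Akt. Its level in nTregs was low, at 1.595, 1.28 and 1.054 CPM in WT (47, 38 and 34 counts) and 4.804, 4.313 and 5.354 CPM in mutants (152, 189 and 176 counts). In iTregs it was 17.66, 23.93 and 25.73 CPM in WT and 22.5, 20.56 and 39.34 CPM in mutants. Mutant nTregs were all above WT nTregs, whereas the iTreg groups overlapped, with mutant library 4 standing above the others. Phlda3 rose in nTregs by 1.88 ± 0.29 (adjusted p = 0.000696), the largest change of the 10 genes there, and differed by 0.29 ± 0.22 in iTregs (adjusted p = 0.35), a value that came to -0.0605 without mutant iTreg library 4 (adjusted p = 0.835). The effect in iTregs minus that in nTregs was -1.59 ± 0.36 (adjusted p = 0.016), and it passed under every alternative that was run.

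The zinc finger protein encoded by Zmat3 (ENSMUSG00000027663, chr3:32334792-32366014, minus strand) binds RNA and acts in growth suppression by p53. WT nTregs had 33.9, 33.68 and 31.5 CPM and mutant nTregs 54.93, 53.03 and 62.09 CPM. WT iTregs had 115.1, 135.2 and 159.1 CPM and mutant iTregs 174.6, 152.7 and 178 CPM. In nTregs the groups were far apart, and in iTregs mutant library 2 lay within the WT range. Zmat3 rose in nTregs by 0.78 ± 0.11 (adjusted p = 0.000456), and the iTreg value of 0.30 ± 0.11 missed the threshold (adjusted p = 0.0548). It passed by DESeq2 (adjusted p = 0.0424), with no filter on low counts (adjusted p = 0.0463) and without WT iTreg library 3 (0.43, adjusted p = 0.0121). The iTreg effect minus the nTreg effect was -0.48 ± 0.15 (adjusted p = 0.0586), and it passed with library size alone (-0.61, adjusted p = 0.0169), under both other filters (adjusted p = 0.04 and 0.0349), by DESeq2 (adjusted p = 0.0289) and without WT iTreg library 1 (adjusted p = 0.0302) or mutant nTreg library 1 (adjusted p = 0.0262).

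Perp (ENSMUSG00000019851, chr10:18845020-18857073, plus strand) encodes a membrane protein of desmosomes that takes part in p53-dependent death. It was the least abundant of the genes in WT nTregs, at 0.4072, 0.5053 and 0.806 CPM (12, 15 and 26 counts), and had 3.761, 1.164 and 1.126 CPM in mutant nTregs (119, 51 and 37 counts). WT iTregs had 5.987, 8.359 and 12.94 CPM and mutant iTregs 27.12, 24.64 and 49.75 CPM. Mutant libraries were higher in both kinds, and mutant nTreg library 1 stood far above libraries 2 and 4. Perp rose by 1.89 ± 0.39 in iTregs (adjusted p = 0.00601) and by 1.76 ± 0.60 in nTregs (adjusted p = 0.0387). The nTreg value was 1.01 without mutant nTreg library 1 (adjusted p = 0.23), and leaving out WT nTreg library 1, 2 or 3 also ended the call (adjusted p = 0.12, 0.103 and 0.0615). The effects differed by 0.13 ± 0.78 (adjusted p = 0.951), or by 0.84 without mutant nTreg library 1 (adjusted p = 0.435), so the SE leaves room for a large difference in either direction.

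Aen (ENSMUSG00000030609, chr7:78895854-78911209, plus strand), an exonuclease that degrades DNA in apoptosis, was at 37.63, 34.79 and 35.62 CPM in WT nTregs and 42.79, 42.69 and 43.5 CPM in mutant nTregs. The iTreg levels were 67.41, 77.21 and 73.58 CPM in WT and 70.6, 74 and 84.38 CPM in mutants. The nTreg groups were separate and the iTreg groups overlapped. Aen rose in nTregs by 0.26 ± 0.08 (adjusted p = 0.0234). Without mutant nTreg library 2 or 4 or WT nTreg library 2 or 3 it no longer passed (adjusted p = 0.0611, 0.0785, 0.0838 and 0.0958), nor with the replicate block (adjusted p = 0.103). The iTreg value was 0.07 ± 0.08 (adjusted p = 0.54), and its sign turned with library size alone (-0.0185) and without mutant iTreg library 4 (-0.0091).

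The last pair act on damaged DNA. Ddb2 (ENSMUSG00000002109, chr2:91211572-91236982, minus strand) encodes a subunit of the complex that recognises ultraviolet lesions for nucleotide excision repair. Exons of Ddb2 overlap those of Acp2 on the opposite strand, and the counting used strand. WT nTregs had 72.75, 79.12 and 76.88 CPM and mutant nTregs 50.38, 57.55 and 58.74 CPM. WT iTregs had 57.68, 54.14 and 55.31 CPM and mutant iTregs 49.54, 51.34 and 36.42 CPM. Mutant libraries were below WT libraries in both kinds, with mutant iTreg library 4 the lowest of all. Ddb2 fell in nTregs by 0.46 on the log2 scale (SE 0.11, adjusted p = 0.00749), and in iTregs the value of -0.28 ± 0.11 did not pass (adjusted p = 0.0769). It passed in iTregs with library size alone (-0.38, adjusted p = 0.0271), with a filter of 1 CPM in 3 libraries (adjusted p = 0.0403), with the compared libraries alone (adjusted p = 0.0485) and without mutant nTreg library 1 (adjusted p = 0.0209).

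Polk (ENSMUSG00000021668, chr13:96480689-96542485, minus strand) encodes DNA polymerase kappa, which copies past damaged bases. WT nTregs had 25.69, 27.55 and 24.89 CPM and mutant nTregs 29.74, 29.71 and 32.58 CPM. WT iTregs had 48.67, 56.02 and 57.18 CPM and mutant iTregs 66.86, 61.61 and 70.6 CPM. Mutant libraries were higher than WT libraries in both kinds, by a small margin. Polk rose by 0.30 ± 0.08 in iTregs (adjusted p = 0.0196) and by 0.24 ± 0.08 in nTregs (adjusted p = 0.0431). The iTreg call was lost with library size alone (adjusted p = 0.0836), with the replicate block (adjusted p = 0.0804) and without mutant iTreg library 1 or 4 or WT iTreg library 1 (adjusted p = 0.0628, 0.0605 and 0.113). In nTregs the call was lost with RLE size factors (adjusted p = 0.062), with no filter (adjusted p = 0.0739), with the replicate block (adjusted p = 0.147), by DESeq2 (adjusted p = 0.0624) and with the compared libraries alone (adjusted p = 0.0785). It was also lost without mutant nTreg library 2 or 4, any WT nTreg library, mutant iTreg library 1 or WT iTreg library 1 or 2 (adjusted p of 0.0517 to 0.185).

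The difference between the genotype effects of iTregs and nTregs passed for 3 of the 10 genes, Mdm2, Trp53inp1 and Phlda3, against 13.3% of all tested genes. The iTreg effect was the more positive for Mdm2 and Trp53inp1 and the less positive for Phlda3 (6.12% and 7.18% of all tested genes passed in these directions). By DESeq2 5 of the 10 passed. Scaling by library size alone moved the median of this difference over all genes from 0.00 to -0.14 and the share of higher calls from 46% to 17.8%, and with that scaling neither Mdm2 nor Trp53inp1 passed. With the same scaling, the share of higher calls moved from 55.4% to 65.4% for nTregs and from 55.2% to 35.5% for iTregs.

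Without mutant nTreg library 1, 4 of the 10 genes rose and 2 fell in nTregs, Perp being lost. The count of genes that changed in nTregs was 4 without WT nTreg library 2 or 3, and in the difference it was 1 without mutant iTreg library 1 or WT nTreg library 1 or 2.

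Cultured iTregs and fresh nTregs of WT mice differed in all of these genes. In WT cells 7 of the 10 genes were higher in iTregs, 3 were lower, and no gene had overlapping libraries, against 69.5% of all tested genes that passed (33.7% higher, 35.7% lower) and 77.8% without overlap (37.9% higher, 39.9% lower). Phlda3 was higher by 4.10 ± 0.28 (adjusted p = 8.62e-08) and Perp by 3.97 ± 0.54 (adjusted p = 2.99e-05). Zmat3 followed with 2.05 ± 0.11 (adjusted p = 1.62e-08), then Polk with 1.05 ± 0.08 (adjusted p = 2.9e-07), Aen with 1.01 ± 0.08 (adjusted p = 2.35e-07) and Ccng1 with 0.86 ± 0.10 (adjusted p = 7.33e-06). Mdm2 was higher by 0.21 ± 0.08 (adjusted p = 0.0305), a call lost with RLE size factors (adjusted p = 0.051), library size alone (adjusted p = 0.0867), the replicate block (adjusted p = 0.0522), DESeq2 (adjusted p = 0.0577) and without WT iTreg library 2 or 3 or WT nTreg library 1 or 3 (adjusted p of 0.0681 to 0.107). The genes that were lower in iTregs were Trp53inp1 (-0.55 ± 0.12, adjusted p = 0.00106), Ddb2 (-0.45 ± 0.11, adjusted p = 0.0026) and Trp53 itself (-0.20 ± 0.06, adjusted p = 0.00834). The sum of proliferation genes was likewise higher and those of B cell, myeloid and erythroid markers lower in iTregs, and their part in these differences was not tested.

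In mutant cells 7 of the 10 genes were higher in iTregs and 2 were lower, against 68.2% of all tested genes that passed (33.2% higher, 35% lower). Libraries did not overlap for 8 of the 10 (7 higher, and Trp53 lower), against 68.9% of all tested genes (33.6% higher, 35.2% lower). The higher genes were the same 7: Perp by 4.10, Phlda3 by 2.51, Zmat3 by 1.57, Ccng1 by 1.24, Polk by 1.11, Aen by 0.83 and Mdm2 by 0.58. Trp53 (-0.15, adjusted p = 0.0413) and Ddb2 (-0.28, adjusted p = 0.0386) were lower, both near the threshold, and Ddb2 libraries overlapped. With the compared libraries alone neither passed (adjusted p = 0.0763 and 0.0793), and Trp53 did not pass with no filter (adjusted p = 0.15) or with the replicate block (adjusted p = 0.0639). Leaving out single libraries ended both calls: for Trp53, any library but mutant nTreg library 1 or mutant iTreg library 4 (adjusted p of 0.0566 to 0.159), and for Ddb2, any of mutant iTreg library 4, mutant nTreg libraries 2 and 4, the 3 WT iTreg libraries and WT nTreg libraries 2 and 3 (adjusted p of 0.0502 to 0.152). Trp53inp1 differed by 0.12 ± 0.12 (adjusted p = 0.395), with a sign that turned with library size alone (-0.077) and without mutant nTreg library 1 (-0.10). For Perp the value was 4.8027 without mutant nTreg library 1. With library size alone the median over all genes moved from -0.02 to -0.20 and the share of higher calls from 48.7% to 36%.

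**Figure D3:**
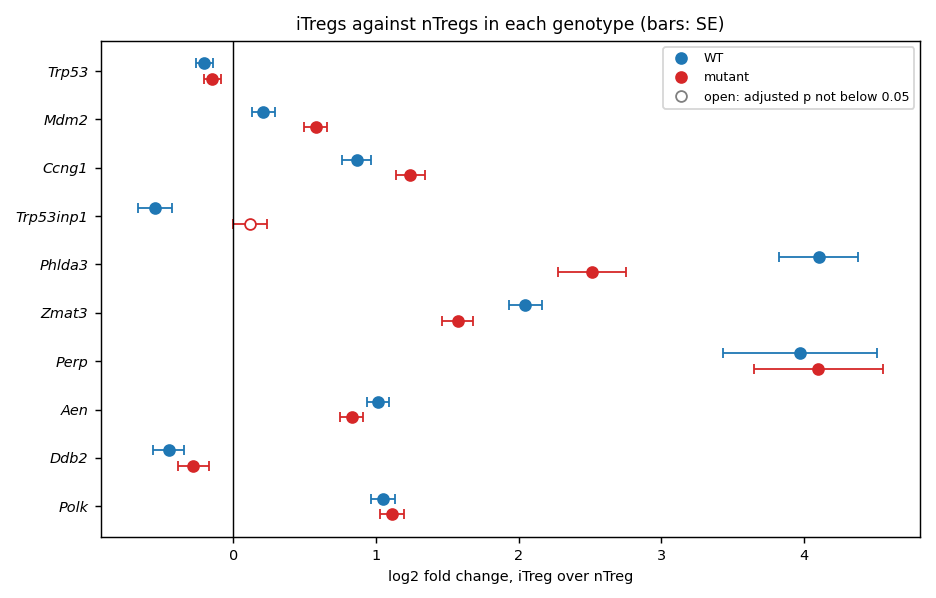
Log2 fold change of iTregs over nTregs for the 10 genes, in WT and in mutant cells, with bars of 1 SE and filled points where the adjusted p was below 0.05. The values run from -0.55 for Trp53inp1 to 4.10 for Phlda3 in WT cells and from -0.28 for Ddb2 to 4.10 for Perp in mutant cells.

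Levels of different genes were compared in CPM per kilobase of exon. In WT nTregs the highest mean level, 89.95 ± 5.92 (SD, n = 3) for Trp53inp1, was 306 times the lowest, 0.2935 for Perp. Below Trp53inp1 came Ccng1 (63.68), Ddb2 (27.87) and Trp53 (26.7), Mdm2 (16.3), Aen (6.209) and Polk (6.072), Zmat3 (2.888) and Phlda3 (0.84), where Ddb2 and Trp53, and Aen and Polk, had overlapping libraries and the other neighbours did not. In mutant nTregs the range was 68.7 times, from 70.96 for Ccng1 to 1.033 for Perp, and Ccng1 overlapped with Trp53inp1 (60.97). In WT iTregs the range was 24.9 times, from 115.9 for Ccng1 to 4.66 for Perp. There Phlda3 (14.39), Polk (12.58) and Aen (12.54) each overlapped with the next gene down, ending at Zmat3 (11.94). Zmat3 lay above Perp in every WT iTreg library. In mutant iTregs the range was 12.7 times, from 167.5 for Ccng1 to 13.16 for Aen. The 8 genes from Mdm2 (24.54) down to Aen formed an unbroken series of overlapping neighbours that included Perp (17.33) and Phlda3 (17.62). The low genes of WT nTregs were thus nearer to the rest in each of the other groups.

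Libraries of a group deviated from its mean in several genes at a time. WT iTreg library 1 was the lowest of its group for 9 of the 10 genes, where it was lowest for 38% of all tested genes. Mutant iTreg library 4 was the highest of its group for 8 of the 10 genes (34.6% of all tested genes), with Trp53inp1 and Ddb2 as the exceptions. In mutant nTregs library 2 was the lowest for 7 genes (32.6% of all tested genes) and library 4 the highest for 7 (29.3%). The largest deviations were those of Perp in mutant nTregs, at 0.90 for library 1 and -0.79 and -0.84 for libraries 2 and 4, as log2 of the library's CPM over the group mean.

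**Figure D4:**
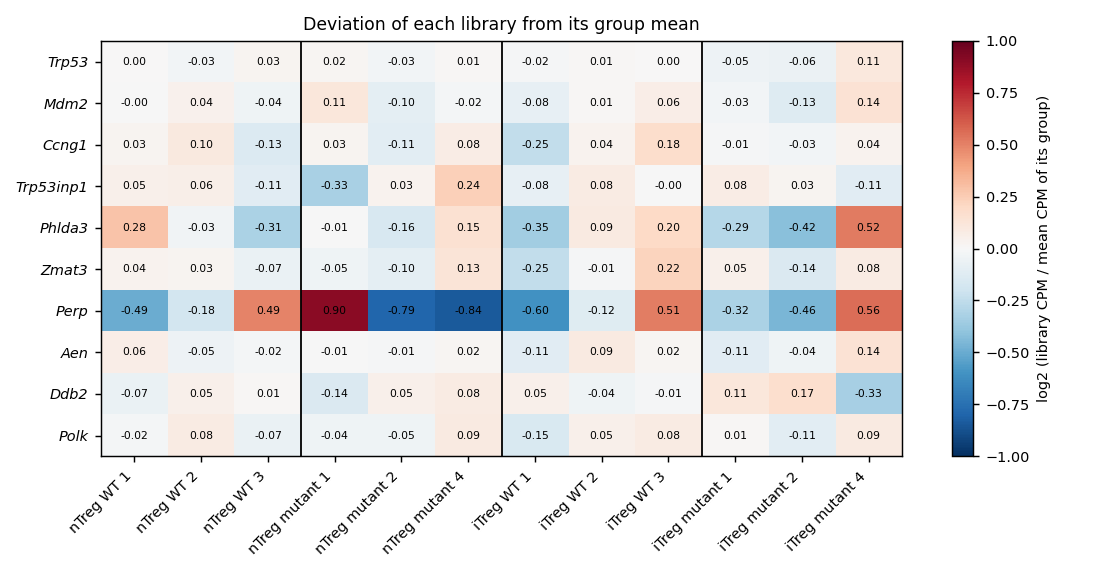
Log2 of each library's CPM over the mean CPM of its group for the 10 genes, with the value printed in each cell and colour from -1 (blue) to 1 (red). Perp ranges most, from -0.84 to 0.90, and Trp53 least, from -0.06 to 0.11.

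Over the 12 libraries, the tested genes whose pattern was nearest to that of Trp53 were Copg1, Phrf1 and Kri1, at root mean square distances of 0.0413, 0.0442 and 0.0442 in log2 CPM, where the median over 11443 candidate genes was 0.3276. Copg1, for example, went from 149.3 ± 0.841 CPM in WT nTregs to 136.3 ± 5.23 in mutant nTregs, 131.5 ± 2.48 in WT iTregs and 122.5 ± 1.46 in mutant iTregs (SD, n = 3). The nearest to Mdm2 were Utp11, Slc39a1 and Gm18646, at 0.0627, 0.0653 and 0.0666, with a median of 0.3428 over the candidates. Utp11 was at 38.33 ± 1.13 CPM in WT nTregs, 41.53 ± 4.05 in mutant nTregs, 45.81 ± 0.759 in WT iTregs and 59.22 ± 2.31 in mutant iTregs.

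Other genes of the pathway were taken from lists written by function, with earlier results of these data known. The counts below are therefore no independent test of these lists. Of 14 regulators of p53, such as its kinases and ligases, 3 rose and 4 fell in mutant nTregs (19.3% and 15.6% of all tested genes), with a median of -0.11. Those that rose were the checkpoint kinase genes Chek1 (1.29 ± 0.16, adjusted p = 0.000272) and Chek2 (0.40, adjusted p = 0.0109) and Cdkn2a (3.55 ± 0.72, adjusted p = 0.00311), whose product Arf blocks Mdm2. Cdkn2a went from 1, 6 and 4 counts in WT nTregs to 80, 51 and 22 counts in mutant nTregs, and it reached the filter's minimum level in mutant nTregs alone, so that it could enter the count only as a riser there. Those that fell were Mdm4, a partner of Mdm2 that restrains p53 (-0.42 ± 0.07, adjusted p = 0.0014), the kinase gene Atm (-0.32, adjusted p = 0.00934), Usp7, whose product deubiquitinates Mdm2 and p53 (-0.18, adjusted p = 0.0259), and Trp53bp1, a damage response adaptor (-0.22, adjusted p = 0.0115). In mutant iTregs 3 of the 14 rose and none fell (14% and 11.4% of all tested genes), with a median of 0.12: Chek2 (0.41, adjusted p = 0.0119), Chek1 (0.48, adjusted p = 0.0336) and the phosphatase gene Ppm1d (0.22, adjusted p = 0.032). At an unadjusted p below 0.05 these iTreg counts were 4 and 1, and by DESeq2 3 and 1. None rose in iTregs without mutant iTreg library 2 or WT iTreg library 1 or 2, and 1 rose without mutant iTreg library 1 and with library size alone. Of these genes Atm, Chek2, Usp7, Trp53bp1 and, further on, Plk2, Btg2, Sfn, Ptprv, Gpx1 and Pank1 were named after their values were seen, to complete small counts.

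Of 11 tested genes of cell cycle arrest and growth restraint (13 listed), 4 rose and 5 fell in mutant nTregs (19.3% and 15.6% of all tested genes), with a median of 0.33. Cdkn1a, which encodes the cyclin-dependent kinase inhibitor p21 and is the best known p53 target, was at 1.9, 2.358 and 2.139 CPM in WT nTregs and 29.49, 18.28 and 19.56 CPM in mutant nTregs. The iTreg levels were 99.98, 130.7 and 152.1 CPM in WT and 180.3, 162.1 and 265.8 CPM in mutants. No mutant library overlapped with the WT libraries of its kind, and every iTreg library was above every nTreg library. Cdkn1a rose by 3.39 ± 0.27 in nTregs (adjusted p = 5.03e-05) and by 0.67 ± 0.21 in iTregs (adjusted p = 0.0334), a difference of -2.72 ± 0.34 (adjusted p = 0.00171). The other risers in nTregs were Gtse1, a mitotic regulator that restrains p53 (1.86), Plk2 (1.17) and Zfp365 (0.48), and the fallers were the stress gene Sesn1 (-1.56), Gadd45a (-1.09), Ptprv (-0.88), Btg2 (-0.70) and Sfn (-0.62). In iTregs 3 rose (Gadd45a by 0.80, Cdkn1a and Zfp365 by 0.42) and Btg2 fell by 0.29 (14% of all tested genes rose and 11.4% fell), with a median of 0.38. The counts of 3 and 1 became 0 and 0 without WT iTreg library 1, and 1 and 0 without mutant iTreg library 1 or WT iTreg library 2. They were 1 and 2 without mutant iTreg library 4 and 1 and 1 with library size alone. Gadd45a thus fell in nTregs and rose in iTregs, and its difference of 1.89 passed (adjusted p = 0.00321).

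Of 14 genes of cell death, 11 rose and none fell in mutant nTregs (19.3% and 15.6% of all tested genes), with a median of 0.77, also with no faller at an unadjusted p below 0.05 and by DESeq2. Among those that rose were Siva1 (1.26 ± 0.15, adjusted p = 0.000197), Pidd1, which encodes a caspase adaptor (0.88 ± 0.12, adjusted p = 0.000338), Steap3 (2.92 ± 0.41, adjusted p = 0.000443, from 5, 4 and 6 counts to 59, 48 and 28) and Bax, a pore-forming protein of mitochondrial death (0.43 ± 0.11, adjusted p = 0.0087). Eda2r had 0 counts in WT nTregs and 17 in mutant nTregs, which is at least 4.78-fold higher against 3 counts over the WT group, and with this bound the median of the list stayed at 0.77. Bbc3, which encodes the killer protein Puma, was at 3.359, 2.897 and 3.317 CPM in WT and 1.643, 3.491 and 3.529 CPM in mutant nTregs (-0.14, adjusted p = 0.714), and Fas and Bid did not pass either. In mutant iTregs 6 of the 14 rose and none fell, against 14% and 11.4% of all tested genes, with a median of 0.29 (8 and 0 at an unadjusted p below 0.05, 5 and 0 by DESeq2). One of the 6 was Eda2r, which reached the filter's minimum level in 3 mutant iTreg libraries and in 2 others, and so entered the test through the group where it is high. Examples were Ei24 (0.38 ± 0.08, adjusted p = 0.00664), Pmaip1, which encodes the killer protein Noxa (2.002-fold higher, adjusted p = 0.00855), and Dram1, which acts in autophagy (1.07 ± 0.30, adjusted p = 0.0229). Bax (-0.22, adjusted p = 0.148) and Bbc3 (-0.51, adjusted p = 0.144) did not pass in iTregs, and the Bax effect differed from that of nTregs by -0.65 ± 0.15 (adjusted p = 0.0168). The iTreg count of 6 fell to 1 without WT iTreg library 1, to 2 without WT iTreg library 2 or mutant iTreg library 4 (the latter with 1 lower), to 3 without mutant iTreg library 1 and to 4 without WT iTreg library 3 or with library size alone.

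Of 6 genes of DNA repair and nucleotide supply, Pcna, the sliding clamp of DNA replication, rose in mutant nTregs (0.87, adjusted p = 0.00275), and the excision repair genes Xpc (-0.29, adjusted p = 0.0364) and Ercc5 (-0.25, adjusted p = 0.0229) fell, beside 19.3% and 15.6% of all tested genes. In mutant iTregs Ercc5 rose (0.27, adjusted p = 0.0218) and Xpc fell (-0.33, adjusted p = 0.0278), beside 14% and 11.4% of all tested genes. Xpc thus fell in both kinds, as Ddb2 did in nTregs, whereas the Ercc5 effects differed by 0.52 ± 0.11 (adjusted p = 0.0102). These repair counts were small and changed with single libraries: in nTregs no gene fell without mutant nTreg library 1 and 1 fell without mutant nTreg library 2, any WT nTreg library or with library size alone. In iTregs none passed in either direction without mutant iTreg library 1 or 2 or WT iTreg library 1 or 2, 2 rose and none fell without mutant iTreg library 4, 2 rose and 1 fell without mutant nTreg library 1, 1 rose and 2 fell without WT iTreg library 3, and none rose and 2 fell with library size alone. Of 9 metabolic targets, 4 rose in mutant nTregs (Gls2 by 1.96, Cpt1c by 1.68, Dcxr by 1.24 and Gpx1 by 0.35) and Pank1 fell by 0.66 on the log2 scale, beside the same 19.3% and 15.6%. The 2 largest rises were at low levels: Gls2 had means of 0.2961 CPM in WT and 1.163 CPM in mutant nTregs, and Cpt1c 0.3156 and 1.014 CPM. In mutant iTregs 2 rose (Gls2, the liver-type glutaminase, by 0.93 and Cpt1c by 0.70) and none fell, beside 14% and 11.4% (4 and 1 at an unadjusted p below 0.05, 3 and 0 by DESeq2). That count of 2 fell to 1 with library size alone and without any one of 9 libraries, those other than WT iTreg library 3 and mutant nTreg libraries 1 and 2, and rose to 3, 4 and 3 without these.

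Genes of proliferation rose in the same comparisons. All 12 genes of DNA replication and mitosis rose in mutant nTregs, where 19.3% of all tested genes rose. Their median was 1.60, and the changes ran from 0.98 for Mcm2 to 1.96 for Ccnb1. The smallest adjusted p-values were those of E2f1 (1.41 ± 0.13, adjusted p = 9.09e-05), Mcm3 (1.24) and Mcm2. In mutant iTregs 7 of the 12 rose and none fell (14% and 11.4% of all tested genes), with a median of 0.65, and Ccnb1 (1.12), Cdk1 (0.79) and Bub1 (0.74) had the smallest adjusted p. The iTreg count was 0 without WT iTreg library 1 or 2, 1 without mutant iTreg library 1 or 2, 3 without WT nTreg library 1 or 2, 8 higher and 2 lower without mutant nTreg library 1, and 4 higher and 1 lower with library size alone. Some of the p53 targets above, such as Pcna, Gtse1 and Chek1, are also known as cell cycle genes. Whether the changes of the p53 targets depend on those of the proliferation genes was not tested.

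**Figure D5:**
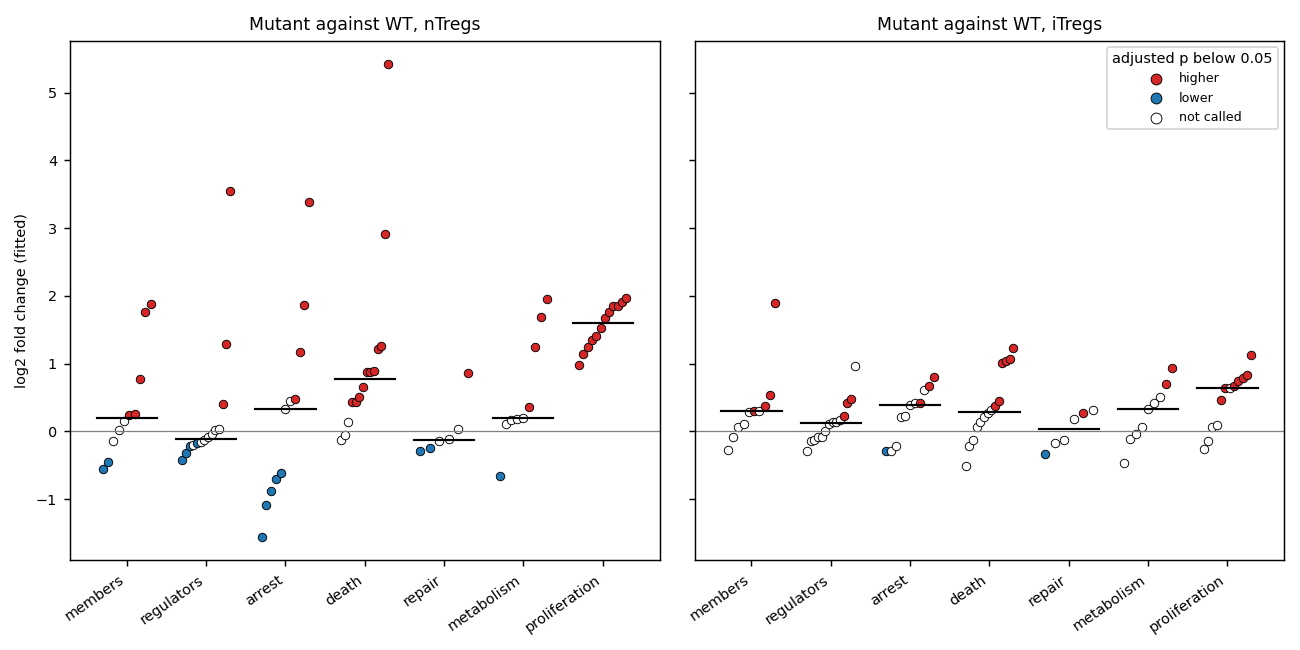
Fitted log2 fold change of mutant over WT for each tested gene of the 10 described genes and of 6 other lists, in nTregs (left) and iTregs (right), with a line at each list's median and colour for genes with an adjusted p below 0.05. Genes of cell death and proliferation lie mostly above 0 in nTregs, with none called lower, while arrest genes are spread from -1.56 to 3.39; the topmost point of the death list is Eda2r, whose fitted value rests on a WT group with 0 counts and is no measure of its size.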

How the data were processed

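The authors deposited raw gene counts, 1 file per library, which were used unchanged. Per the file headers, the authors made these counts with featureCounts 1.5.2 on Ensembl release 87 of GRCm38, on the reverse strand, over exons and summed per gene, assigning reads to the largest overlap, leaving out chimeric fragments and counting multi-mapping reads at each alignment. Per the submitters' processing notes, bcl2fastq 2.18.0.12, STAR 2.5.2b, Subread 1.5.2 and mm10 were used, and per the labels' protocols RNA was taken with a NucleoSpin RNA kit for TruSeq Stranded mRNA libraries. Of 49671 genes, 49326 were matched to a symbol. The deposited files also give exon lengths, which were used for levels per kilobase.

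Tests used edgeR 4.0.16 (R 4.3.3, limma 3.58.1): filterByExpr (17977 genes), TMM, 4 group means (8 residual degrees of freedom) and a two-sided quasi-likelihood F-test, with Benjamini-Hochberg adjustment over all tested genes and a threshold of 0.05. Fitted log2 fold changes carry a prior count of 0.125, and log2 CPM for nearest patterns a prior count of 2. The nearest patterns were sought among tested genes with a symbol and a mean of at least 5 CPM, leaving out the 10 described genes. Libraries of a group differed beyond sampling noise (chi-square per degree of freedom 4.201 to 47.19), so none were merged. The 10 genes and the lists were chosen with earlier results of these data known. Named by rule were the 10 genes, Gclc, Foxp3, Cdkn1a, Bax, Bbc3, up to 3 genes with the smallest adjusted p that passed from each list in each genotype comparison, and the 3 nearest patterns of Trp53 and of Mdm2. Alternatives were 2 other scalings (RLE and library size alone), 2 other filters (none, and 1 CPM in at least 3 libraries), a fit of only the groups compared, a replicate block, DESeq2 1.42.0 and omission of each library in turn. On simulated counts with 200 changed genes among 17977, 64% of genes changed by 2-fold were found for nTregs and 68% for iTregs, and 16% and 8% of those changed 1.3-fold. In the data far more genes passed, 34.9% in nTregs and 25.4% in iTregs. With fewer changed genes the adjustment is stricter, so the simulated shares do not give the recovery in the data.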

Additional observations from a re-analysis of the deposited data

Results flagged for a closer look

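The genotype effect differed between iTregs and nTregs (interaction term, edgeR, adjusted p below 0.05) for the following genes, given as the log2 effect in iTregs minus that in nTregs. Of the 10 described genes these were Mdm2 (0.37), Trp53inp1 (0.66) and Phlda3 (-1.59), beside the mutated gene Gclc (-0.65). Of the regulators these were Chek1 (-0.80), Mdm4 (0.34, adjusted p = 0.0494), Ppm1d (0.31, adjusted p just below 0.05) and Usp7 (0.29, adjusted p = 0.0317). The positive calls depended on the scaling: of the 14 regulators, 0 were higher and 1 lower with library size alone. With RLE size factors 2 were higher and 1 lower, and by DESeq2 5 and 1. Genes of arrest and growth restraint were Cdkn1a (-2.72), Gtse1 (-1.63), Gadd45a (1.89), Sesn1 (1.34), Sfn (1.04) and Ptprv (1.26). Genes of cell death were Bax (-0.65), Pidd1 (-1.01), Siva1 (-1.20) and Steap3 (-2.71). The repair gene Ercc5 (0.52) and the metabolic gene Pank1 (1.08) were also among them. Proliferation genes were Top2a (-1.10), Mcm2 (-1.13), Mcm3 (-1.15), Mcm5 (-1.08), E2f1 (-1.67) and Tyms (-0.88). Of all tested genes 13.3% passed this test.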

How the results depend on the processing

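Of 940 values of the 10 genes under the alternatives, 824 kept their direction and their side of the threshold, 77 lost the call, 17 gained it and 22 turned in sign. No value that passed in the comparisons as reported turned in sign. Mdm2 in nTregs was -0.004 with RLE size factors, -0.0044 by DESeq2, -0.0124 with the replicate block and -0.0322 to 0.0378 with single libraries left out. With single libraries left out Phlda3 in iTregs ranged from -0.0605 to 0.4613 and Aen in iTregs from -0.0091 to 0.1233, and Aen was -0.0185 with library size alone. In the difference between effects, library size alone gave -0.0794 for Trp53 and -0.0722 for Polk, and leaving out single libraries gave -0.0083 to 0.0835 for Trp53, -0.0299 to 0.1237 for Polk and -0.26 to 0.8415 for Perp. Trp53inp1 in mutant iTregs against mutant nTregs was -0.077 with library size alone and -0.10 to 0.2575 with single libraries left out.

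Genes that changed in iTregs numbered 4561, with the replicate block 3036, and 1770 to 6260 with single libraries left out. For the difference the count was 2392, with the block 1471, and 1104 to 3216 with single libraries left out. Of the 10 genes, 4 to 8 changed in nTregs and 1 to 4 in the difference with single libraries left out, and 5 in the difference by DESeq2. No pairing by replicate number was visible: deviations from the group means correlated at -0.064 to 0.05 between same-numbered libraries of one genotype (6 pairs), and 4 of 12 libraries correlated best with their own number. The labels do not say what a number shares, and so few correlations cannot exclude a pairing. With the block 3 of the 10 genes rose in nTregs in place of 5, Aen (adjusted p = 0.103) and Polk (0.147) being lost. The block also ended the calls of Polk in iTregs (0.0804), of the Mdm2 difference (0.0922), of Mdm2 in WT iTregs against WT nTregs (0.0522) and of Trp53 in mutant iTregs against mutant nTregs (0.0639). The cause of these shifts was not tested. Depth limits Perp and Phlda3 in WT nTregs most, at 12 to 26 and 34 to 47 counts per library.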
